A study of Mus musculus with 14 samples.

Results

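Hepatoblasts carrying the mutant IDH1 R132C were compared with hepatoblasts carrying an empty vector, both kept on uncoated culture plates. Sample titles chose the members, 4 of the 14 arrays of the series: 2 of R132C cells and 2 of vector cells. Every gene with a probe set of its own was read, 12393 in all, through the probe set with the highest mean over the 14 arrays. Both groups were hepatoblasts of wild-type mouse embryos at day 14, immortalised by plating at clonal density, and how many lines were used is not stated in the labels. Both groups carried a doxycycline-inducible construct. R132C cells expressed the mutant IDH1 from it on uncoated plates, and vector cells held the empty construct on uncoated plates. Doxycycline at 25 ng/mL is given for IDH1 experiments, and whether vector cultures received it is not given. All cultures grew in one serum medium with epidermal growth factor, insulin-like growth factor II and insulin. Time on uncoated plates is given only as at most 5 days. The other 10 arrays came from cells on collagen, among them R132C cells and vector cells, 2 arrays each. The series text names the replicates as separate cultures. No array of wild-type IDH1 on uncoated plates was analysed here, so the mutation and the presence of extra IDH1 cannot be told apart in this comparison.

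IDH1 is the cytosolic enzyme that turns isocitrate into 2-oxoglutarate. The R132C mutant turns 2-oxoglutarate into 2-hydroxyglutarate, which can inhibit dioxygenases that need 2-oxoglutarate, among them histone and DNA demethylating enzymes. Hepatoblasts are the fetal progenitors of hepatocytes and bile duct cells, and culture without a collagen coat is the protocol's setting for hepatocyte differentiation. The question the design puts is how cells with the mutant differ from control cells under that setting.

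Values are levels on the log2 scale of the deposited intensity, and a difference is the R132C mean minus the vector mean on that scale. Array medians of the 4 uncoated arrays lay between 145.9 and 148.3 intensity units, and replicates correlated at r = 0.9973 in R132C cells and r = 0.9972 in vector cells across genes. The lower quartile of genes lay at log2 4.92 to 4.95, and a mean within 0.5 of it or under it is called near background here. In counts of list members near background in a group, both arrays of the group had to lie there. With 2 arrays per group, their number limits the precision. The epithelial keratins Krt8 and Krt18 stood at 14.09 to 14.28 and the biliary keratin Krt19 at 13.51 to 13.74 on all 4 arrays. Afp, the fetal serum protein that marks hepatoblasts, stood at 9.09 to 11.03, while the hepatoblast marker Gpc3 and the adult plasma protein Alb were near background. Dlk1 and Igf2, markers of fetal liver, stood at 5.14 to 5.65. Of the markers of other cell types, none of 15 blood cell genes and none of 16 endothelial genes passed the test. Over all genes 2.39% passed, so lists of this size would hold few calls in any case. Near background on both arrays of each group were 11 and 10 of them, among them Adgre1, Pecam1, Cdh5, Tek and Vwf. Some markers were read singly, and of these Csf1r at 5.95 to 6.16, Cd68 at 5.22 to 5.78, Ptprc at 4.93 to 6.45 and Kdr at 5.59 to 5.89 stood higher. Further members of both lists lay above background and are not named here. The 16 endothelial genes summed to 850 and 819 intensity units in R132C cells and 828 and 838 in vector cells. The Idh1 level was 11.98 and 12.16 in R132C cells and 12.19 and 12.28 in vector cells, and that of Idh2 was 11.10 and 11.11 in R132C cells and 11.31 and 11.34 in vector cells. Neither passed (adjusted p = 0.814 and adjusted p = 0.191 by limma), and since the labels do not state the species of the introduced sequence, these signals check nothing about the labels.

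R132C cells had far lower levels of a set of genes known from intestinal mucosa and from liver detoxification, and higher levels of a smaller set that held S100a4, Afp and some genes of cell division. By limma with Benjamini-Hochberg adjustment over 12393 genes, 296 genes passed an adjusted p of 0.05, which is 2.39% of those tested. Of these, 111 rose in R132C cells (0.896%) and 185 fell (1.49%). At least 2-fold higher were 15 genes (0.121%) and at least 2-fold lower 76 genes (0.613%). The R132C arrays did not overlap with the vector arrays in any of the 296. Among all genes, both R132C arrays lay above both vector arrays in 21.3% and below them in 25.7%. The median difference over all genes was -0.014. The count of 296 came to 71 without R132C uncoated replicate 1, to 82 without vector uncoated replicate 1, to 140 with only the 4 arrays fitted and to 178 without either R132C collagen replicate, which enters through the shared estimate of spread. Under 17 other settings, 54 of the genes passed wherever they were tested. Of these, 27 (20 lower and 7 higher) were tested in all 17, and the other 27 were not tested with dim genes left out.

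**Figure D1:**
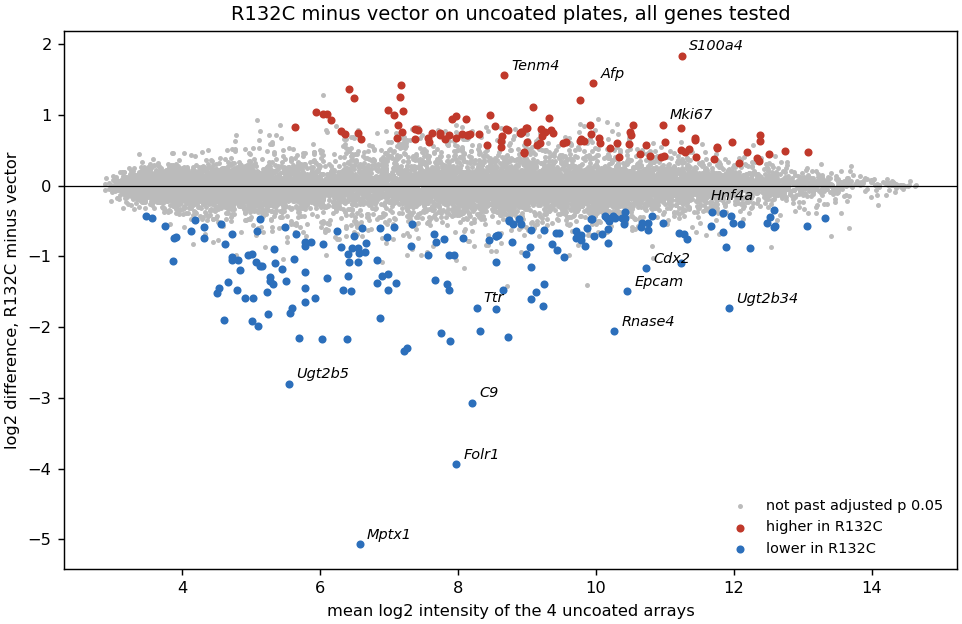
Each point is 1 of the 12393 genes, with the mean log2 intensity of the 4 uncoated arrays on the x axis and the log2 difference, R132C minus vector, on the y axis. Red points (111) rose and blue points (185) fell in R132C cells at an adjusted p of 0.05, and grey points did not pass. The falls reach -5.07 (Mptx1) and the rises 1.84 (S100a4).

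Mptx1, a pentraxin made in the intestinal mucosa, fell most. Its level was 3.75 and 4.33 on the R132C arrays and 9.05 and 9.17 on the vector arrays, a measured difference of -5.07 (SE 0.152, 95% confidence interval -5.40 to -4.74, adjusted p = 1.3e-09 by limma). Both R132C arrays lay under the lower quartile of genes and both vector arrays far above it. Against that quartile Mptx1 was at least 17.9-fold lower in R132C cells, and other folds for genes with an R132C mean under it are bounds of the same kind. In whole cultures, fewer cells that make a transcript and less transcript per cell cannot be told apart. Folr1, a folate receptor, stood at 5.69 and 6.33 in R132C cells and 10.11 and 9.78 in vector cells, 15.3-fold lower. C9, the complement component that completes the membrane pore, stood at 6.15 and 7.19 in R132C cells and 9.77 and 9.71 in vector cells, 8.39-fold lower. The R132C arrays differed from each other more than the vector arrays did for C9, and all R132C values lay below all vector values.

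Ugt2b5, which attaches glucuronic acid to small molecules, stood at 3.83 and 4.47 in R132C cells and 7.25 and 6.65 in vector cells (difference -2.80, SE 0.217). Guca2a, the intestinal peptide guanylin, stood at 5.95 and 6.16 in R132C cells and 8.76 and 8.02 in vector cells (difference -2.34, SE 0.207). Spink4, a protease inhibitor of goblet cells, stood at 5.91 and 6.33 in R132C cells and 8.35 and 8.48 in vector cells (difference -2.29, SE 0.161). Ugt2b5 was near background in R132C cells, while Guca2a and Spink4 remained above it. The lysosomal hexosaminidase subunit Hexa (-2.19), the fatty acid hydroxylase Cyp4f14 (-2.17), the interferon-induced GTPase Gbp2 (-2.16) and the flagellin sensor Naip5 (-2.16) followed. The calcium-binding S100g (-2.15), the sulfotransferase Sult1d1 (-2.09), the secreted protease Adamts1 (-2.06), the secreted ribonuclease Rnase4 (-2.06) and Clca3a2 (-1.98), a relative of chloride channel regulators, completed the 15 largest falls. Rnase4 kept a high level in both groups, 9.35 and 9.13 in R132C cells and 11.42 and 11.18 in vector cells.

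**Figure D2:**
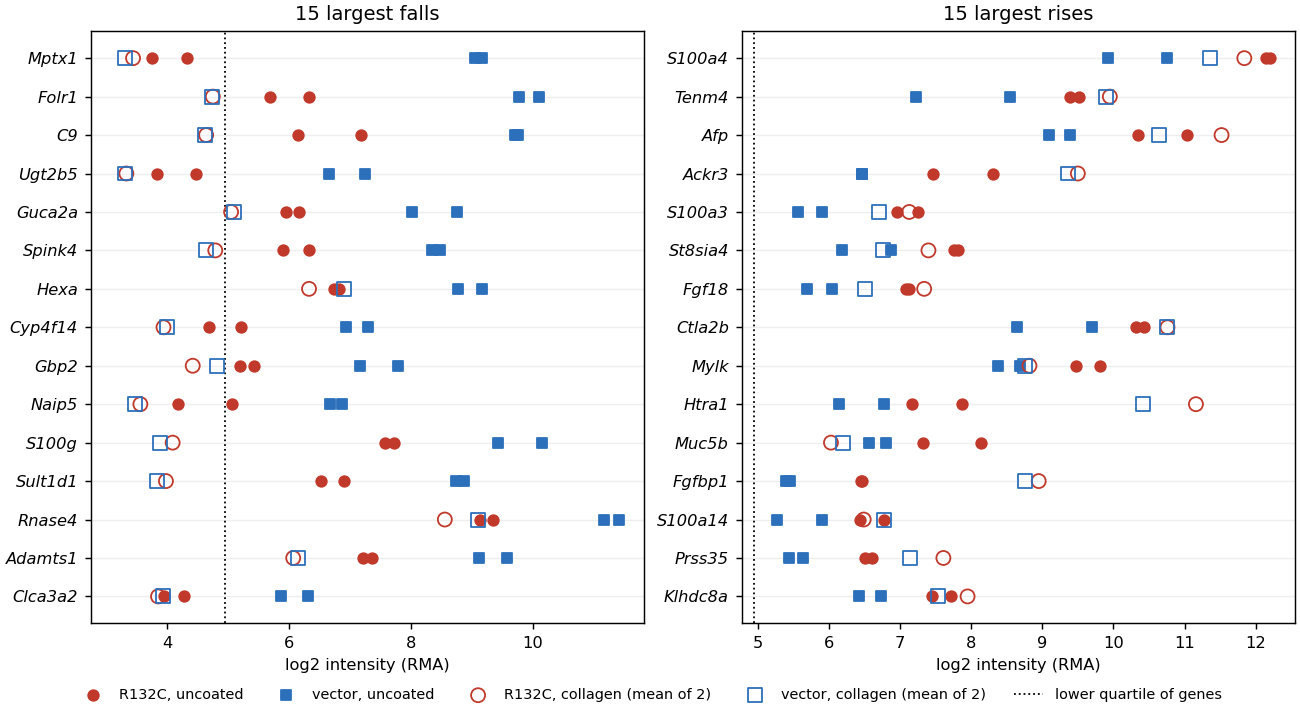
Log2 intensity of each array for the 15 genes that fell most (left) and the 15 that rose most (right) in R132C cells on uncoated plates. Filled red circles are the 2 R132C arrays and filled blue squares the 2 vector arrays on uncoated plates, open symbols the means of the 2 arrays on collagen, and the dotted line the lower quartile of genes (4.95). Filled red and blue symbols of a gene do not overlap, and for most falls the open symbols of both groups lie together at the left.

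The promoters of Mptx1, C9 and Guca2a, which are among the 6 largest falls, are shown beside that of Afp, the hepatoblast marker that rose. Each window covers the gene start and the bases just before it (RefSeq, GRCm38.p6, 5′ to 3′ on the gene's strand). Capitals would mark the letters CAAAGTCCA on either strand, the core of a site of the hepatocyte factor HNF4, and none of these windows holds them. Mptx1 lies at chr1:174330268-174330567 (plus strand), C9 at chr15:6445096-6445395 (plus strand), Guca2a at chr4:119637482-119637781 (plus strand) and Afp at chr5:90490464-90490763 (plus strand).
Mptx1: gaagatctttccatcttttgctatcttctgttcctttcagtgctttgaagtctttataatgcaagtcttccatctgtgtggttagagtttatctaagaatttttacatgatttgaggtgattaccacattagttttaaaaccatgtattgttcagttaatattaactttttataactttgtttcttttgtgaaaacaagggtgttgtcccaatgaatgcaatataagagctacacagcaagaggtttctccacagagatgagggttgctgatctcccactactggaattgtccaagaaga
C9: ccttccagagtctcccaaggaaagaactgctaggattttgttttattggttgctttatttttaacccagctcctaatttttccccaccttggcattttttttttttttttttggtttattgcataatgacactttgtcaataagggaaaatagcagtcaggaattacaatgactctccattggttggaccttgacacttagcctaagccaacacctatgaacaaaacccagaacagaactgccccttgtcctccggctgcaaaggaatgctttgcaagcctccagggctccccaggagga
Guca2a: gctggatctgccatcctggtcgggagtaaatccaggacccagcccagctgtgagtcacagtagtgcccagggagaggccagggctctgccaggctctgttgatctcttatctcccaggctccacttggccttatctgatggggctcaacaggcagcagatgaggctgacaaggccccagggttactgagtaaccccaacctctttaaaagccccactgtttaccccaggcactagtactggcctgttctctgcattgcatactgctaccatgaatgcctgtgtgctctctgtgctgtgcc
Afp: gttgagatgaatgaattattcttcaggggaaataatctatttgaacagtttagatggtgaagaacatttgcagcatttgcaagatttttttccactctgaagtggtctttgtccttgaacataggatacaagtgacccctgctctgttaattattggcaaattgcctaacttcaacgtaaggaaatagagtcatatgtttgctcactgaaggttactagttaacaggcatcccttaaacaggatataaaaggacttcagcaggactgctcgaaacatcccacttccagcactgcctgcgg
CAAAGTCCA, searched on both strands, was in 3 of 79 windows (3.8%) of the genes at least 2-fold lower, in 0 of 17 of those at least 2-fold higher and in 73 of 12566 windows (0.581%) of the genes tested. It was in 156 of all 32851 windows (0.475%). Windows were found for 63 of the 76 genes at least 2-fold lower and 13 of the 15 at least 2-fold higher, and some genes have several. These shares describe letters in windows and were not tested.

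Among the gene lists, that of intestinal mucosa and secretion held the most falls. All lists were chosen with earlier results of these data known, so their counts are description and not independent support. Of 42 intestinal genes measured, 13 fell in R132C cells (31%, against 1.49% of all genes) and none rose. Their median was -0.282 against -0.014 over all genes. In 28 of them both R132C arrays lay below both vector arrays, where all genes had 25.7%. Beside Mptx1, Guca2a, Spink4 and S100g these were the membrane mucin Muc13 (-1.87), the antibacterial surface protein Lypd8 (-1.59), the tetraspan proteins Tm4sf20 (-1.40) and Tm4sf5 (-1.34), and the intestinal fatty acid binding protein Fabp2 (-1.39). The secreted lectins Reg1 (-1.18) and Reg3b (-1.08) and the brush border aminopeptidase Anpep (-1.05) fell too. Cdx2, the transcription factor that sets intestinal identity, stood at 10.04 and 10.26 in R132C cells and 11.32 and 11.32 in vector cells, 2.25-fold lower (adjusted p = 0.00922 by limma). Cdx2 was far above background on all 4 arrays. Another probe set of Cdx2 gave -0.96 (adjusted p = 0.00718 by limma). Cdx2 is not among the genes that passed wherever they were tested under the other settings. Its difference was -1.06 without R132C uncoated replicate 1. Near background were 20 of the 42 members in R132C cells and 12 in vector cells. The count of 13 came to 8 without R132C uncoated replicate 1, and to 5 of 19 members with dim genes left out.

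**Figure D3:**
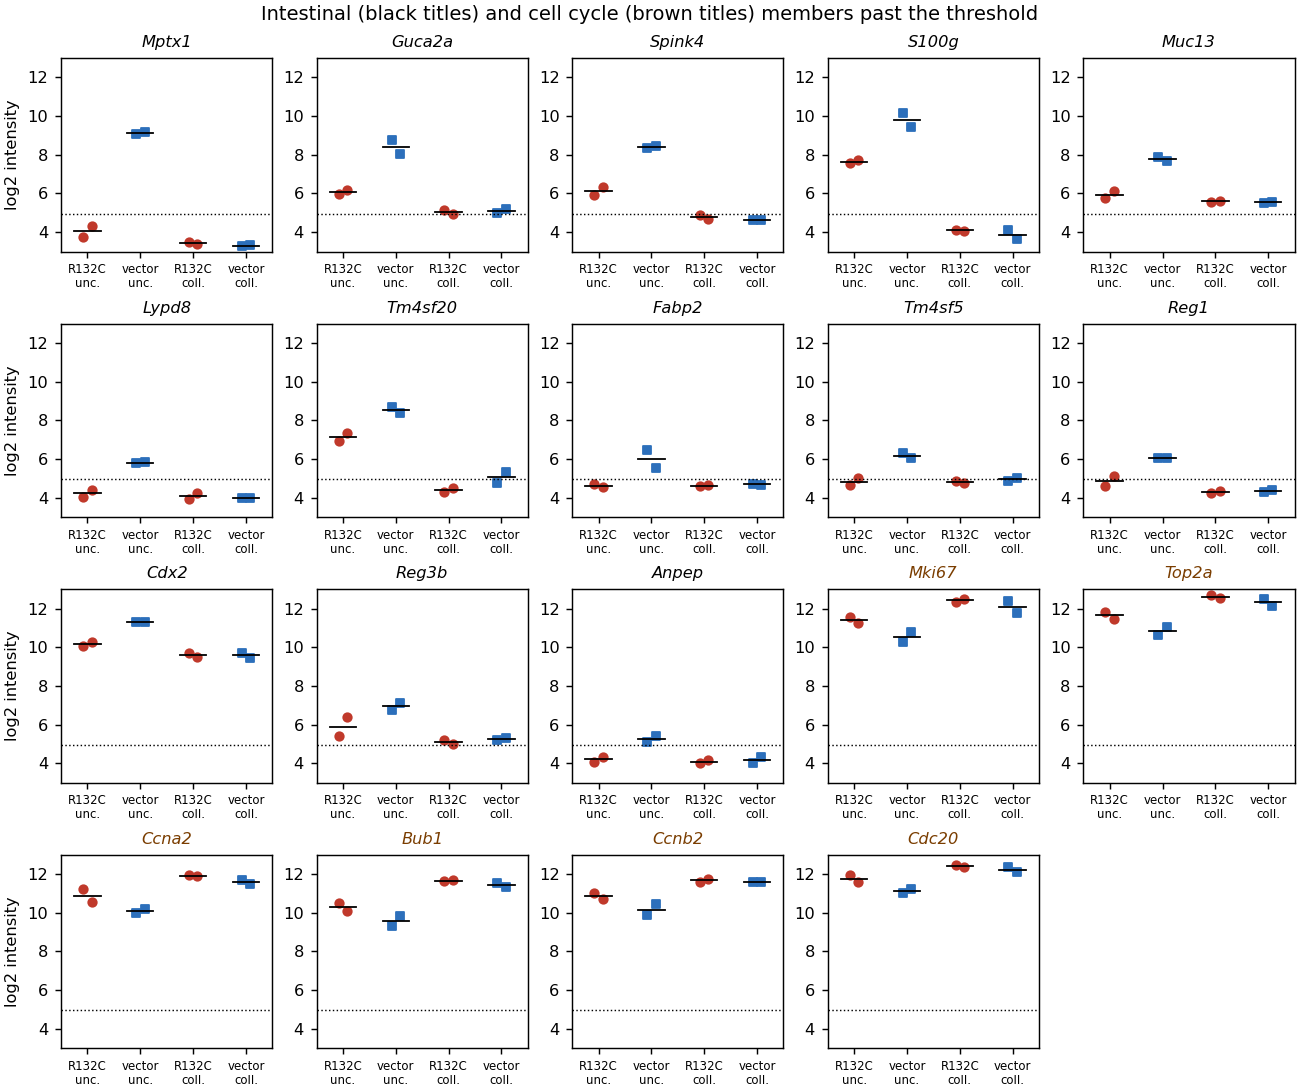
Log2 intensity (y axis) of each array for the 13 intestinal genes that fell (black titles) and the 6 cell cycle genes that rose (brown titles) in R132C cells on uncoated plates. Red circles are R132C arrays and blue squares vector arrays, on uncoated plates (unc.) and on collagen (coll.), bars are means of 2 arrays and the dotted line is the lower quartile of genes. The R132C and vector arrays lie apart on uncoated plates in each panel, and for most of the intestinal genes near each other on collagen.

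Enzymes of drug and steroid metabolism fell in part. Of 30 measured cytochromes P450, 5 fell (16.7%, against 1.49% of all genes) and none rose, with a median of -0.095. Cyp4f14 stood at 4.68 and 5.21 in R132C cells and 7.30 and 6.94 in vector cells, at least 4.5-fold lower. Cyp3a13, a relative of the main drug-oxidising enzymes, stood at 10.60 and 10.77 in R132C cells and 11.93 and 11.62 in vector cells, 2.14-fold lower. The R132C level of Cyp3a13 was far above background and that of Cyp4f14 was near it. The aryl hydrocarbon receptor target Cyp1a1 (-1.59), the fatty acid hydroxylase Cyp4v3 (-1.08) and the sterol hydroxylase of bile acid synthesis Cyp27a1 (-0.99) also fell. The count of 5 came to 3 without R132C uncoated replicate 1 or vector uncoated replicate 1, and to 2 of 9 members with dim genes left out.

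Of 30 conjugating enzymes 5 fell and 1 rose (20% in all, against 2.39% of all genes), with a median of -0.172. Ugt2b34, a glucuronosyltransferase, stood at 10.69 and 11.45 in R132C cells and 12.92 and 12.68 in vector cells, 3.32-fold lower, and all 4 values were far above background. Beside Ugt2b5 and Sult1d1, the sulfotransferase Sult1a1 (-1.73) and Ugt2b1 (-0.69) fell, while Sult2b1, which adds sulfate to cholesterol, rose (0.68). With dim genes left out, 1 of 16 members fell. Of 21 transporters of bile acids, organic ions and drugs, 1 fell (4.76%), the sterol exporter Abcg5 (-1.80). Abcg5 stood at 4.57 and 4.77 in R132C cells and 6.87 and 6.07 in vector cells.

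Of the hepatocyte transcription factors and plasma proteins, 5.88% and 7.14% passed against 2.39% of all genes, shares that rest on 1 and 2 calls. Of 17 transcription factors, 1 fell, the drug-sensing receptor Nr1i2, at 4.64 and 4.43 in R132C cells and 5.62 and 5.59 in vector cells (difference -1.07, adjusted p = 0.00282 by limma). The median of the list was -0.159 and 15 of 17 differences were negative. Hnf4a, a central regulator of hepatocyte genes, stood at 11.26 and 11.60 in R132C cells and 11.74 and 11.68 in vector cells, a difference of -0.28 (95% confidence interval -0.53 to -0.03) that did not pass (adjusted p = 0.286 by limma). Cebpa, another such regulator, stood at 8.04 and 8.54 in R132C cells and 8.84 and 9.07 in vector cells and did not pass (difference -0.67, interval -1.11 to -0.23, adjusted p = 0.124 by limma). All R132C values of both genes lay below all vector values, which was so for 25.7% of all genes. Foxa2 differed by -0.02 (interval -0.27 to 0.23) and Foxa3 by -0.66 (interval -1.25 to -0.06), and neither passed.

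Of 28 plasma proteins 2 fell. Ttr, the carrier of thyroid hormone and retinol-binding protein, stood at 7.35 and 7.47 in R132C cells and 9.31 and 8.96 in vector cells, 3.31-fold lower (adjusted p = 2.63e-05 by limma). Apoc2, the activator of lipoprotein lipase, fell by 1.25 on the log2 scale (adjusted p = 0.0476 by limma). The count of 2 came to 1 when R132C uncoated replicate 1, either vector uncoated replicate or either R132C collagen replicate was left out. Alb was near background at 4.85 and 4.75 in R132C cells and 5.21 and 4.65 in vector cells, and the groups overlapped. The median of the plasma proteins was -0.098, and 18 of the 28 were near background in each group.

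Other liver functions gave 0 to 3 calls per list, 0% to 12.5% of members past the threshold, against 2.39% of all genes. Of 24 complement genes 3 fell: C9, the decay-accelerating Cd55 (-1.28) and C2 (-0.95), and the count came to 1 without R132C uncoated replicate 1 or vector uncoated replicate 1. Of 23 acute phase genes 1 fell, the serum amyloid Saa3 (-0.80), and of 15 fibrinogen and coagulation genes none passed. Of 23 genes of hepatocyte metabolism 2 fell. Adh1, the alcohol dehydrogenase, stood at 4.48 and 4.19 in R132C cells and 6.54 and 5.77 in vector cells, at least 2.3-fold lower. Cpt1a, which admits fatty acids to mitochondria, stood at 10.87 and 11.03 in R132C cells and 11.69 and 11.56 in vector cells, 1.6-fold lower. Adh1 was near background in R132C cells, and 19 members in R132C cells and 18 in vector cells were.

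The biliary and hepatoblast lists moved at 2 members each (11.8% and 14.3%, against 2.39% of all genes). Epcam, the surface protein of biliary and progenitor cells, stood at 9.37 and 10.04 in R132C cells and 11.19 and 11.21 in vector cells, 2.82-fold lower (adjusted p = 0.00218 by limma). The chloride channel Cftr fell too (-0.74), between levels near background. The biliary keratins and Sox9 did not pass, with differences of 0.31 for Krt7 (interval -0.05 to 0.67), 0.11 for Krt19 (-0.07 to 0.28) and 0.03 for Sox9 (-0.52 to 0.58). The median of the 17 biliary genes was 0.030. None of 20 Notch pathway genes passed.

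Afp rose, at 11.03 and 10.35 in R132C cells and 9.39 and 9.09 in vector cells, 2.72-fold higher (difference 1.45, SE 0.211, adjusted p = 0.00311 by limma). The gap between the groups was wider than the spread within either. Other probe sets of Afp gave 1.37 and 1.23 (adjusted p = 0.00631 and adjusted p = 0.0117 by limma), and a further 2 at dim levels gave 0.06 and 0.35 and did not pass. On collagen Afp stood at 11.47 and 11.57 with R132C, 10.43 and 10.71 with wild-type IDH1 and 10.64 and 10.63 with vector. Id3, an inhibitor of basic helix-loop-helix factors, fell (-0.66). The other 12 of the 14 hepatoblast and fetal liver genes did not pass, and their list had a median of 0.031.

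S100a4, a calcium-binding protein of motile cells, rose most. It stood at 12.20 and 12.14 in R132C cells and 9.92 and 10.75 in vector cells, 3.57-fold higher (difference 1.84, SE 0.237, adjusted p = 0.00129 by limma). The vector arrays differed from each other by more than the R132C arrays, and both lay below them. S100a3, of the same family, stood at 7.25 and 6.96 in R132C cells and 5.57 and 5.91 in vector cells, and S100a14 rose as well (1.02). S100a4 was also the only one of 23 mesenchymal and stellate cell markers that passed. That list's intensity summed to 25494 and 25163 units in R132C cells and 19888 and 22223 in vector cells, with S100a4 counted in it and 11 of 23 members near background in each group. The part of other cell types in this rise was not tested. Of the mesenchymal markers, Col1a1, Col3a1 and Pdgfrb were near background. Acta2 stood at 5.47 to 5.58, Des at 6.02 to 6.11 and the intermediate filament Vim at 13.77 to 13.89 on all 4 arrays.

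Tenm4, a transmembrane teneurin, stood at 9.39 and 9.51 in R132C cells and 7.23 and 8.54 in vector cells (difference 1.56, SE 0.289). Ackr3, a receptor that takes up the chemokine Cxcl12, stood at 8.31 and 7.47 in R132C cells and 6.47 and 6.46 in vector cells (difference 1.43, SE 0.209). The growth factor Fgf18 stood at 7.13 and 7.09 in R132C cells and 5.70 and 6.04 in vector cells (difference 1.24, SE 0.164). Within these 3 genes 1 group was tight and the other spread, R132C for Tenm4 and Fgf18 and vector for Ackr3. The other large rises were the polysialic acid synthase St8sia4 (1.26), the protease inhibitor-like Ctla2b (1.20), the myosin light chain kinase Mylk (1.11), the secreted protease Htra1 (1.06), the mucin Muc5b (1.05), the growth factor carrier Fgfbp1 (1.04), the protease-like Prss35 (1.01) and Klhdc8a (1.00). Htra1 rose to 7.87 and 7.17 in R132C cells, against 6.78 and 6.14 in vector cells, and stood at 10.31 to 11.19 on the collagen arrays of R132C, wild-type IDH1 and vector cells. Another probe set of Htra1 gave 0.51 and did not pass (adjusted p = 0.488 by limma). With only the 4 uncoated arrays fitted, Tenm4, Ackr3, St8sia4, Ctla2b, Htra1 and Muc5b did not pass. Fgf18 and Prss35 passed under every other setting in which they were tested.

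Of 32 measured genes of the cell cycle, 6 rose in R132C cells (18.8%, against 0.896% of all genes) and none fell. All 32 genes had a positive difference, with a median of 0.559 against -0.014 over all genes. In 30 of them both R132C arrays lay above both vector arrays, where all genes had 21.3%. The proliferation marker Mki67 stood at 11.54 and 11.27 in R132C cells and 10.29 and 10.80 in vector cells, 1.82-fold higher (adjusted p = 0.0309 by limma). The topoisomerase Top2a (0.82), cyclins Ccna2 (0.76) and Ccnb2 (0.72), the spindle checkpoint kinase Bub1 (0.73) and Cdc20, an activator of the anaphase-promoting complex (0.64), passed too. Other probe sets of these genes did not pass: Ccna2 gave 0.53, Cdc20 0.51 and 0.55, Bub1 0.24 at a dim level and Top2a -0.03 at a dim level. With the probe sets of a gene averaged, 2 of the 32 passed. The mean level of the list was 9.96 and 9.57 on the R132C arrays and 9.07 and 9.34 on the vector arrays, so the replicates of each group lay further apart than the nearest arrays of the 2 groups. The 6 calls came to 0 without R132C uncoated replicate 1, 0 without vector uncoated replicate 1, 0 with only the 4 arrays fitted and 15 without R132C uncoated replicate 2. None of 22 cyclin-dependent kinase inhibitors and p53 targets passed, where 2.39% of all genes did. Cdkn2a stood at 9.83 and 10.15 in R132C cells and 10.22 and 10.15 in vector cells (difference -0.20, adjusted p = 0.572 by limma).

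**Figure D4:**
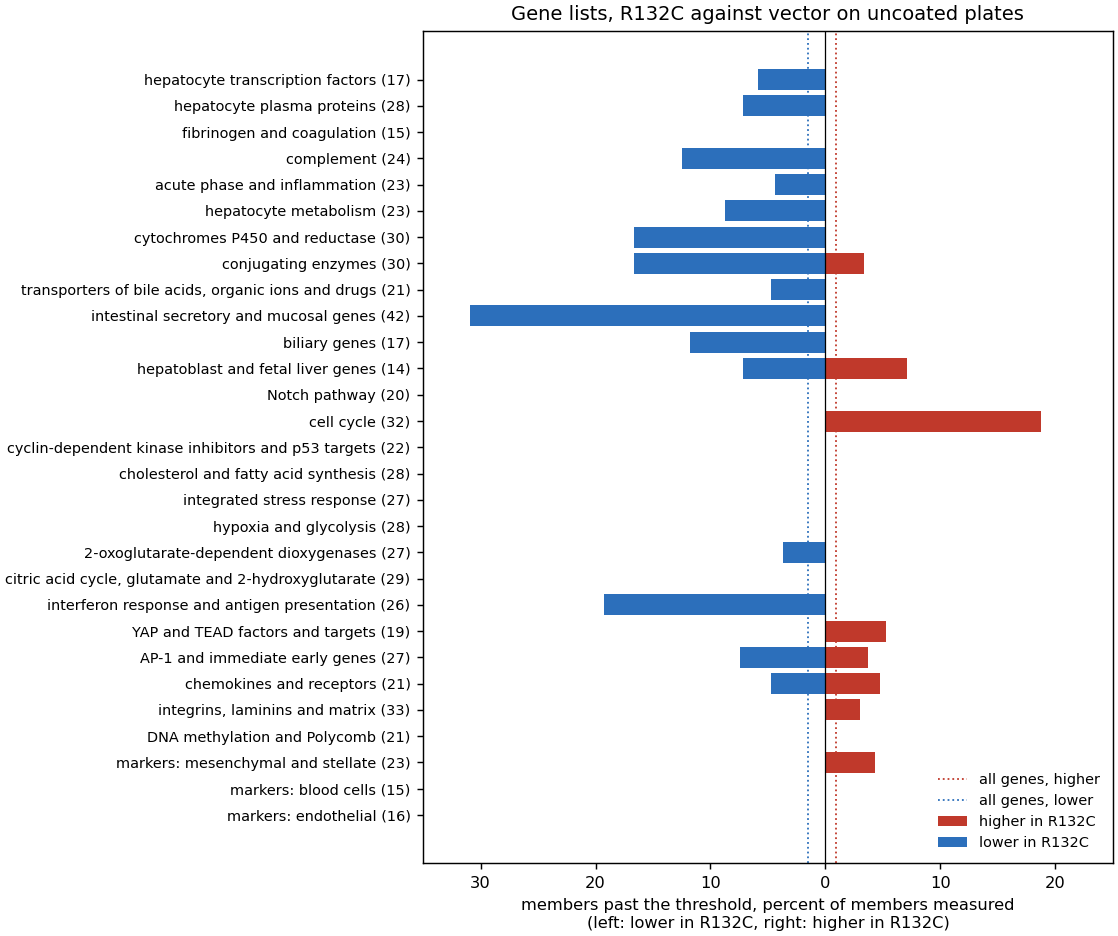
Share of the measured members of each gene list that passed the test (x axis, percent), to the left where lower and to the right where higher in R132C cells on uncoated plates. Numbers in brackets are members measured, and dotted lines are the shares over all genes tested (1.49% lower, 0.896% higher). The intestinal list has the longest bar to the left (13 of 42) and the cell cycle list the longest to the right (6 of 32).

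Among enzymes that make or use 2-oxoglutarate, 1 gene passed, 3.7% of the dioxygenase list against 2.39% of all genes. Of 27 dioxygenases that use 2-oxoglutarate, 1 fell: Phyh, which starts the breakdown of phytanic acid in peroxisomes, at 7.68 and 7.73 in R132C cells and 8.52 and 8.38 in vector cells (difference -0.74, adjusted p = 0.0114 by limma). The median of that list was 0.009. None of 29 genes of the citric acid cycle, glutamate and 2-hydroxyglutarate passed (differences -0.239 to 0.512), nor did any of 21 genes of DNA methylation and Polycomb (-0.412 to 0.663). None of 28 genes of hypoxia and glycolysis and none of 27 of the integrated stress response passed. Among 28 genes of cholesterol and fatty acid synthesis none passed, while 27 differences were positive, with a median of 0.304. With the replicate number as a block in the fit, some of the 28 did pass as rises. Their mean level was 9.96 and 10.16 on the R132C arrays and 9.55 and 9.92 on the vector arrays. In 16 of the 28 both R132C arrays lay above both vector arrays, where all genes had 21.3%.

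Genes of the interferon response and antigen presentation were lower in part. Of 26 measured, 5 fell (19.2%, against 1.49% of all genes) and none rose, with a median of -0.296. In 22 of the 26 both R132C arrays lay below both vector arrays, where all genes had 25.7%. Gbp2 stood at 5.19 and 5.43 in R132C cells and 7.79 and 7.16 in vector cells, 4.48-fold lower and near background in R132C cells. The interferon-induced protease Usp18 (-0.90), the immunoproteasome subunit Psmb10 (-0.67), the antiviral Ifit1 (-0.64) and Gbp3 (-0.44) fell too, Usp18 to near background in R132C cells and Ifit1 and Gbp3 between levels near background. Blood cell markers summed to 504 and 450 intensity units in R132C cells and 553 and 496 in vector cells, and the leukocyte marker Ptprc stood at 5.76 and 4.93 in R132C cells and 6.45 and 5.95 in vector cells (difference -0.85, adjusted p = 0.154 by limma). Their part in the result was not tested. The count of 5 came to 1 without R132C uncoated replicate 1, 2 without R132C uncoated replicate 2 or vector uncoated replicate 1, 3 without vector uncoated replicate 2 and 1 of 17 members with dim genes left out.

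Lists of signalling and matrix genes had 1 to 3 calls each, 3.03% to 11.1% of their members against 2.39% of all genes. Among 27 AP-1 and immediate early genes, Klf4 rose (0.68) and Klf2 (-0.72) and Jun (-0.70) fell, all 3 being transcription factors of rapid responses. Of 21 chemokines and receptors, Ackr3 rose and the chemokine Cxcl16 fell (-0.76). Of 19 YAP and TEAD factors and targets, Amotl2, a binding partner of YAP, rose (0.51). Of 33 integrins, laminins and matrix genes, the laminin chain Lamb3 rose (0.81, adjusted p = 0.0498 by limma). Neither Lamb3 nor Amotl2 passed when any 1 of the 4 uncoated arrays was left out. The AP-1 count came to 0 without R132C uncoated replicate 1, vector uncoated replicate 2 or either R132C collagen replicate, and Cxcl16 did not pass without R132C uncoated replicate 1 or vector uncoated replicate 1. Over the 29 lists together 58 of the 296 genes were in a list and 238 in none, and 19 lists had at least 1 call.

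The same comparison was made on collagen. By limma, 0 of 12393 genes passed for R132C against vector on collagen (0%), where 936 had an unadjusted p under 0.05 and 5% of the genes is 619.7. The collagen count was 10 with array weights and 33 with the replicate number as a block. The arrays of the collagen comparison are not those of the uncoated comparison, although both share the estimate of spread. These genes were chosen by their uncoated difference, so a smaller one on other arrays follows in part from the choice. The 185 genes that fell on uncoated plates had a median difference of -0.864 there and of -0.115 on collagen, against -0.005 over all genes on collagen. On collagen 137 of them were negative and 38 of these had an unadjusted p under 0.05. The 111 that rose had a median of 0.719 on uncoated plates and 0.189 on collagen, where 95 were positive and 24 of these had an unadjusted p under 0.05. Afp (0.89) and Fgf18 (0.82) were among the rises with a difference on collagen, and Epcam (-0.74) and Cyp3a13 (-0.60) among the falls, none of them past the adjusted threshold there.

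The difference between the plates was tested in the same fit. For 31 genes (0.250%) the R132C minus vector difference was lower on uncoated plates than on collagen, and for none was it higher. All 31 are among the 185 that fell on uncoated plates. Mptx1 stood at 3.47 and 3.40 with R132C and 3.26 and 3.34 with vector on collagen, and its difference between plates was -5.21 (SE 0.216, adjusted p = 6.99e-08 by limma). For Muc13 it was -1.92 and for Sult1a1 -1.87. Of the 31 genes, 22 were near background on collagen in both groups. Of the 185 falls, 59 had an R132C mean near background on uncoated plates, and of the 76 that were at least 2-fold, 38 did. Of the 111 rises, 2 had a vector mean near background. Leaving out 1 array moved the count of 31, to 19 (R132C collagen replicate 1), 20 (R132C collagen replicate 2), 20 (vector collagen replicate 2) or 79 (vector uncoated replicate 2, with 19 of them higher). With dim genes left out it was 11.

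**Figure D5:**
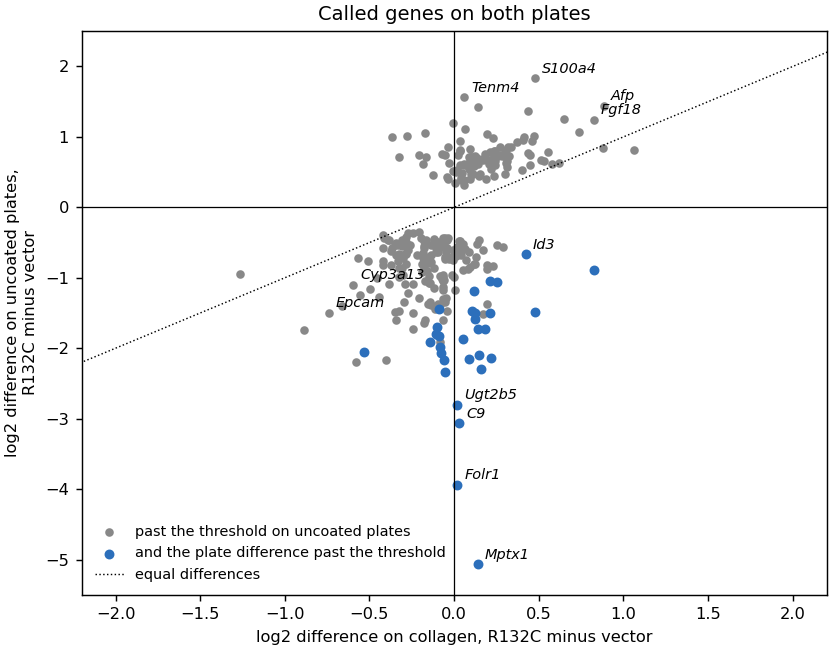
Log2 difference, R132C minus vector, on uncoated plates (y axis) against that on collagen (x axis) for the 296 genes that passed on uncoated plates. Blue points are the 31 whose difference between plates passed too, and the dotted line marks equal differences. Most points lie near 0 on the x axis, and the median is -0.115 for the falls and 0.189 for the rises.

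Other probe sets of the genes named here mostly differed in the same direction, and many did not pass. Of 76 named genes that passed, 23 had 30 further probe sets, of which 29 differed in the same direction and 13 passed by themselves in the test of all 22626 probe sets. Some of those in the same direction differed very little, among them dim probe sets of Mylk (0.01), Cftr (-0.01) and Afp (0.06). The exception in direction was the dim Top2a probe set. Among the named genes that passed, 6 are read by probe sets whose names mark possible matches to related transcripts.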

How the data were processed

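RNA of mouse hepatoblast cultures was read on Affymetrix Mouse arrays, 14 in 7 groups of 2. The authors deposited RMA intensity values on a linear scale, per the submitters' processing notes and the values themselves (the RMA version is not given in the sources used here), and array medians were 134.9 to 148.3. The log2 of these values was taken. Of 22690 probe sets, 64 were controls, 20380 had 1 gene symbol, 691 had several and 1555 were not in the platform table used, and these last 2 kinds (2246) were not named. No symbol needed updating. Of 12393 genes, 4956 had more than 1 probe set, and the one with the highest mean over the 14 arrays was used.

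Group means of all 14 arrays were fitted with limma 3.58.1 in R 4.3.3 (eBayes with intensity trend, 7 residual and 5.67 prior degrees of freedom), and p-values were adjusted by Benjamini-Hochberg over all genes, with a threshold of 0.05. Confidence intervals are at 95%. The comparisons were R132C minus vector on uncoated plates, the same on collagen, and the difference between these. The fit was tested on simulated data. Named genes were the 15 largest rises and 15 largest falls past the threshold without overlap of arrays, leaving out predicted genes, the same for up to 10 each of the other comparisons, the members of gene lists that passed, and a fixed set of liver, biliary and IDH genes. The gene lists and members were chosen with earlier results of these data known. A planned item is not reported here. Alternatives were every probe set, averaging all probe sets of a gene, leaving out genes under the 30th percentile, cyclic loess, median centring, no trend, only the arrays compared, weights per array, a block for the replicate number, each of the 8 R132C and vector arrays left out in turn, and, chosen after seeing the data, the fit without the R172K arrays.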

Additional observations from a re-analysis of the deposited data

Results flagged for a closer look

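For 31 genes the R132C minus vector difference itself depended on the plate, by limma with Benjamini-Hochberg adjustment over all genes, and for all 31 it was lower on uncoated plates. Each value is the uncoated difference minus the collagen difference on the log2 scale. The values were Mptx1 (-5.21), Folr1 (-3.96), C9 (-3.10), Ugt2b5 (-2.82), Spink4 (-2.45), S100g (-2.36), Guca2a (-2.28), Naip5 (-2.25), Sult1d1 (-2.24) and Cyp4f14 (-2.12). Smaller ones were Adamts1 (-1.98), Camk1d (-1.96), Muc13 (-1.92), Ttr (-1.91), Clca3a2 (-1.90), Sult1a1 (-1.87), Cyp2c65 (-1.77), Adh1 (-1.73), Lypd8 (-1.71) and Mt2 (-1.71). The rest were Dmbt1 (-1.71), Abcg5 (-1.69), Hal (-1.62), Entpd2 (-1.60), Tcf23 (-1.58), Rnase4 (-1.53), Gna14 (-1.36), Cadps (-1.32), Ckmt1 (-1.30), Cdhr5 (-1.26) and Id3 (-1.09). Some of the 31 had opposite signs on the plates. Mt2, a metal-binding metallothionein, had a difference of -0.89 on uncoated plates and 0.83 on collagen. Id3 had -0.66 on uncoated plates and 0.42 on collagen, and Camk1d -1.48 and 0.48. No collagen difference passed the adjusted threshold.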

How the results depend on the processing

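With only the 4 arrays compared, 140 genes passed on uncoated plates in place of 296, and leaving out single arrays gave 71 to 309. On collagen, 10 genes passed with array weights in place of 0, and leaving out single arrays gave 0 to 14. The plate difference gave 11 genes in place of 31 when dim genes were dropped, 55 with array weights, and 19 to 79 with single arrays left out. The count of genes changed at least 2-fold was 44 with dim genes left out in place of 91, and 60 to 130 with single arrays left out. Same-numbered replicates did not deviate together in every pair of groups. The r of replicate differences was 0.26 between R132C and vector on uncoated plates, 0.291 on collagen and -0.022 to 0.224 between plates. These values do not settle whether the numbers pair the cultures within a plate, and the main fit did not pair them. With the replicate number as a block, 505 genes passed on uncoated plates, 33 on collagen and 54 in the plate difference, and 8 of the 28 genes of cholesterol and fatty acid synthesis rose, in place of 0. Rises were 37.5% of the 296 calls, 46.1% with the replicate block, 46.6% with dim genes left out, 22.9% with only the 4 arrays compared, and 19.7% without R132C uncoated replicate 1. Of 1267 values of the 76 named genes that passed, 207 no longer passed under an alternative and 0 turned direction, and 32 genes passed wherever tested, 17 of them tested in every alternative and 15 not tested with dim genes left out. Among the 11 named genes that did not pass, Foxa2 turned to 0.00 with median centring. Leaving out single arrays gave -0.13 to 0.10 for Foxa2, -0.41 to 0.15 for Alb and -0.33 to 0.39 for Sox9. Other causes of these changes were not tested. Precision is limited by 2 arrays per group, and levels near background limit the size of a fall that can be measured.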

Other observations

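Some groups were assembled after the values were seen, so they are described without a test. Over all genes 2.39% passed the threshold and the median difference was -0.014. The groups were built around genes that had passed, so a higher share and a larger median follow in part from that choice. Of 33 measured proteins of the mitotic spindle and chromosomes, 19 rose in R132C cells on uncoated plates, with a median of 0.702 on uncoated plates and 0.234 on collagen. In all 33, both R132C arrays lay above both vector arrays, where all genes had 21.3%. None of the 19 is among the 54 genes that passed wherever they were tested under the other settings. The calls of the related cell cycle list were all lost with only the 4 uncoated arrays fitted. Anln, which organises the cleavage furrow, stood at 11.19 and 10.74 in R132C cells and 9.88 and 10.34 in vector cells (difference 0.85). The guanine exchange factor of cell division Ect2 (0.85) and the kinetochore motor Cenpe (0.80) rose as well.

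Of 32 lysosomal proteins 8 fell, and all 32 differences were negative, with a median of -0.314. Beside Hexa these were the cathepsin Ctsa (-0.76), the acid lipase Lipa (-0.71), the peptidase Dpp7 (2.01-fold lower), the fucosidases Fuca1 (-0.45) and Fuca2 (-0.98), the mannosidase Man2b1 (-0.43) and the membrane protein Cln3 (-0.86). In 24 of them both R132C arrays lay below both vector arrays, where all genes had 25.7%.

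Of 13 S100 proteins 4 rose, S100a3, S100a4, S100a8 (0.82) and S100a14, and 1 fell, S100g. Of 4 enzymes of histidine breakdown, the first of the pathway, Hal, stood at 5.73 and 5.69 in R132C cells and 7.36 and 7.04 in vector cells (difference -1.49, adjusted p = 1.86e-05 by limma). Amdhd1, a later enzyme of the pathway, fell too (-1.27).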
